A study of Mus musculus with 22 samples.

Results

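The comparison examined here asked how whole brains of mice exposed in early adulthood to 2 Gulf War chemicals differed from unexposed brains after the same late immune challenge. It set the 4 GWVehLPS libraries against the 3 CtrlVehLPS libraries, which were 7 of the 22 libraries in the study, and all 20026 genes with enough counts were tested. All animals were male C57BL/6J mice. From 10 weeks of age, GW mice received daily intraperitoneal pyridostigmine bromide at 0.7 mg/kg and permethrin at 200 mg/kg for 10 days, and Ctrl mice received vehicle. Mice of both groups were then aged to 17.5 months, were given the vehicle of the cannabidiol arm (Veh) and were injected once with 0.33 mg/kg lipopolysaccharide (LPS) from Escherichia coli. Brains were taken 24 h later, so the values describe a single time after LPS in 1 sex. The 3 CtrlVeh and 4 GWVeh mice had the same history but received phosphate-buffered saline (PBS) in place of LPS. They gave the exposure comparison without LPS and the test of whether the difference depended on LPS.

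Pyridostigmine bromide is a reversible inhibitor of acetylcholinesterase, the enzyme that ends cholinergic transmission. Permethrin is a pyrethroid insecticide that slows the closing of voltage-gated sodium channels. LPS is a bacterial outer-membrane glycolipid sensed by Toll-like receptor 4. After a peripheral dose, brain endothelium, microglia and astrocytes turn on NF-kB and interferon target genes, acute-phase genes and complement, and corticosterone rises through the stress axis. An earlier insult that makes glia answer a later stimulus more strongly is called priming.

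The promoter sequences of 4 interferon-inducible or activity-inducible genes described further on are shown first, because such genes are known for the DNA elements that their transcription factors bind. They are RefSeq promoter sequences (GRCm38.p6), written 5' to 3' on the gene's strand and cut before the first annotated exon base. Cxcl10 encodes an interferon-induced chemokine, listed here with the cytokines, and Gbp3 a guanylate-binding protein, and capitals mark the core of the interferon-stimulated response element on either strand, written as GAAA, any 2 bases and a further GAAA. Nr4a1 and Nr4a3 encode immediate-early nuclear receptors, and capitals mark TGACG, the core of the cyclic AMP response element bound by CREB, on either strand.
Cxcl10, chr5:92348890-92349139, minus strand: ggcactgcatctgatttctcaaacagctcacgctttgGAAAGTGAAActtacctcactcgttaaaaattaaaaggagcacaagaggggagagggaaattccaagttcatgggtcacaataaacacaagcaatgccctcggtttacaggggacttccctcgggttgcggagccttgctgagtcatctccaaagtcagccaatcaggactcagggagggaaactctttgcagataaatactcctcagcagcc
Gbp3, chr3:142559794-142560025, plus strand: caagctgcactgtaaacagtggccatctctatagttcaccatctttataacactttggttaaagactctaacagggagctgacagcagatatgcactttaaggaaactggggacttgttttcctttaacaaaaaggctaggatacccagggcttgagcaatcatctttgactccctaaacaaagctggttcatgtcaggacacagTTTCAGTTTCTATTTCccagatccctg
Nr4a1, chr15:101266596-101266845, plus strand: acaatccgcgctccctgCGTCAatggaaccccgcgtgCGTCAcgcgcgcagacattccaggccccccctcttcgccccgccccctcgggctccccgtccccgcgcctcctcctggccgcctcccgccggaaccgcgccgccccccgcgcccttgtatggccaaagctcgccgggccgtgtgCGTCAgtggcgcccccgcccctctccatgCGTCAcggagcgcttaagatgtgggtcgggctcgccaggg
Nr4a3, chr4:48045055-48045152, plus strand: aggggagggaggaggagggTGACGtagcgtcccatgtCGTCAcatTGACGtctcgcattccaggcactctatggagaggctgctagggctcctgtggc
The Cxcl10 sequence held 1 match and the Gbp3 sequence 2 overlapping matches. The Nr4a1 stretch, which lies upstream of its shorter transcripts and within an intron of the longest, held 4 matches. The Nr4a3 stretch held 3 matches. Over the 250 bases before the annotated start, the interferon core occurred in 2.98% of 32851 RefSeq promoters and TGACG in 17.8%. Counted by gene, with any of a gene's promoters, the interferon core was found in 15 of the 26 interferon-stimulated genes that had an entry, against 3.46% of 27025 genes. TGACG was found in 13 of 16 immediate-early genes, against 19.8% of all genes. These are matches of letters and not measured binding.

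The 7 libraries held between 17152595 and 28779951 counts. CtrlVehLPS replicate 1 stood apart from the others before any comparison was made. Levels are given as counts-per-million (CPM) values on the scaled library size. Summed CPM of 16 cerebellar neuron genes was 969 in this library. It was 2791 and 2881 in its 2 fellow controls and 2767 to 3569 in GWVehLPS. It had 0 counts of Gabra6, which encodes a GABA receptor subunit of granule cells in the cerebellum and which had 87.5 CPM or more in the other 6 libraries, and 3 counts in this library would be 0.111 CPM. It also carried 408 CPM of pancreatic digestive enzyme genes, against 4.82 to 7.64 CPM in the other 6 libraries. Its olfactory bulb sum was the highest at 350 CPM and its choroid plexus sum the lowest at 583 CPM. The cerebellar markers Cbln3 and Pcp2 were at 0.849 and 0.295 CPM there, against at least 223 and 37.9 CPM in the other 6 libraries. Markers of neurons, astrocytes, oligodendrocytes, microglia and endothelium were present in every library, which does not show that each library held every brain region. Where a list's median or a named gene's log2 fold change moved most without CtrlVehLPS replicate 1, both values are given. In bulk tissue, fewer cells of a type and less RNA per cell cannot be told apart.

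**Figure D1:**
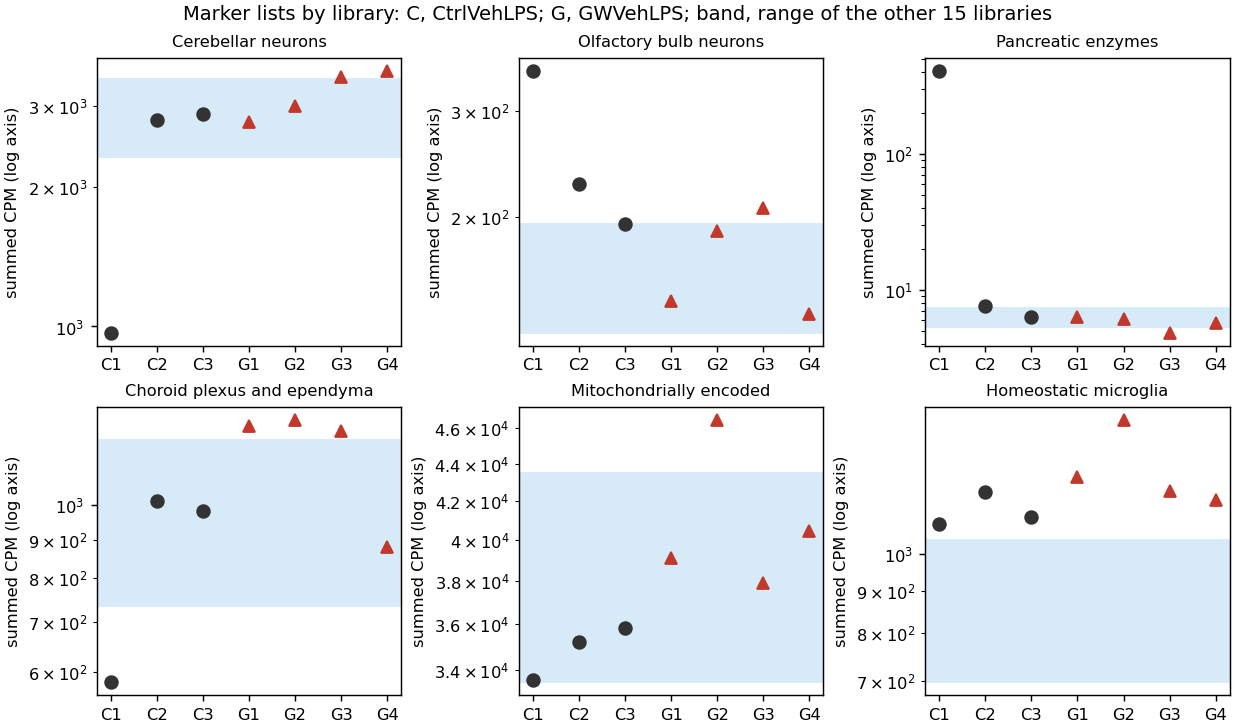
Summed CPM (log axis) of 6 marker lists in each of the 3 CtrlVehLPS (C) and 4 GWVehLPS (G) libraries, with the range of the other 15 libraries as a band. CtrlVehLPS replicate 1 lies below the band for cerebellar and choroid plexus genes and above it for olfactory bulb and pancreatic genes.

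The 2 groups of LPS-treated brains differed at 1 gene. In edgeR's quasi-likelihood test over 20026 genes, Sox9 alone passed an adjusted p of 0.05, which is 0.00499% of the genes tested, and it was higher in exposed brains. No gene was called lower. At an unadjusted p under 0.05, 1548 genes (7.73%) were counted, with 774 (3.86%) higher and 774 (3.86%) lower in GWVehLPS. DESeq2 called 12 genes higher and 13 lower on the same counts, and limma's voom with quality weights called 4 higher and 2 lower. The median standard error of a gene's log2 fold change was 0.14, so that the 95% confidence interval of a typical gene reached 1.21-fold to either side of its estimate. Without CtrlVehLPS replicate 1, edgeR called 0 of 20601 genes, and 910 (4.42%) had an unadjusted p under 0.05, with 495 (2.4%) higher and 415 (2.01%) lower. Of the 1548 genes, 1543 had the same sign without that library and 522 also kept an unadjusted p under 0.05. Both fits share all other libraries and the 1548 were picked by the first, so agreement in sign is largely built in. The 2 groups did not overlap at 569 genes with GWVehLPS above (2.84%) and 515 with GWVehLPS below (2.57%), or 5.41% in all. Apart from Sox9, the genes and lists that follow are described by their values, since none of the genes passed the adjusted threshold. Counts of list members are to be read against these shares of all genes. The lists were chosen with earlier results of these data known, so an excess over these shares is not a test of a list. Some genes stand in more than 1 list, so the counts of different lists are not independent.

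Sox9 encodes a transcription factor that in adult brain is expressed mainly by astrocytes and ependymal cells and that specifies glial fate in development. It lies on chromosome 11 from 112782224 to 112787760 (GRCm38). Its level was 28.1, 28.6 and 28.9 CPM in the 3 CtrlVehLPS libraries and 39.4, 44.8, 38.8 and 36.7 CPM in the 4 GWVehLPS libraries. The controls were tightly grouped, and every exposed brain lay above every control brain. Sox9 rose by a log2 fold change of 0.49 ± 0.08 (SE; 3 against 4 libraries; edgeR adjusted p = 0.0283). Without LPS its level was 30.8, 30.4 and 33.6 CPM in CtrlVeh and 33.9, 36.4, 31.8 and 29.3 CPM in GWVeh, and these groups overlapped. The difference between the exposure effects with and without LPS was 0.43 ± 0.12 on the log2 scale for Sox9, with an edgeR adjusted p of 0.295.

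The size of the Sox9 difference was steadier than its call. Leaving out CtrlVehLPS replicate 1 gave a log2 fold change of 0.48 and an edgeR adjusted p of 0.349. Leaving out CtrlVehLPS replicate 2, GWVehLPS replicate 2 or GWVehLPS replicate 3 gave edgeR adjusted p-values of 0.0884, 0.108 and 0.0562 for Sox9. Over all 7 such fits its log2 fold change stayed between 0.42 and 0.52. A fit of these 7 libraries alone gave an adjusted p of 0.215, and adding scores for bulb and cerebellum to the model gave 0.850 at a log2 fold change of 0.49.

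The other genes of astrocytes did not pass the test. Of 17 tested astrocyte identity genes, 2 had an unadjusted p under 0.05 with higher values in GWVehLPS, and 1 of these was Sox9. The median log2 fold change of the 17 was 0.10, against 0.00 over all genes, and it was 0.043 without CtrlVehLPS replicate 1. Slc1a3, the glial glutamate transporter GLAST, was at 499, 562 and 539 CPM in CtrlVehLPS and 596, 674, 607 and 578 CPM in GWVehLPS, with no overlap. This was a log2 fold change of 0.20 ± 0.06, with an edgeR adjusted p of 0.438. Aqp4, the water channel of astrocyte endfeet, had a log2 fold change of 0.19 ± 0.09 and 0.048 without that library, where Aqp4 was lowest at 106 CPM, and its groups overlapped.

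Reactive astrocyte genes, which astrocytes induce after injury or inflammation, had a median log2 fold change of 0.38 over 32 tested members. Of them, 9 had an unadjusted p under 0.05 with higher values in GWVehLPS and 1 with lower values. These counts were 5 and 0, and the median 0.22, without CtrlVehLPS replicate 1. The 9 include Cxcl10, Serping1 and Psmb8, which are counted again below with the cytokine, complement and antigen presentation genes. Vim, the intermediate filament vimentin, was at 27.4, 46.8 and 53.2 CPM in CtrlVehLPS and 61.4, 77.6, 59.7 and 57.7 CPM in GWVehLPS. For Vim this gave a log2 fold change of 0.61 ± 0.18, and 0.36 without CtrlVehLPS replicate 1, its lowest library. Gfap, the classical marker of astrocyte reactivity, is named here outside the rule for named genes. It was at 250, 343 and 356 CPM in CtrlVehLPS and 434, 488, 346 and 315 CPM in GWVehLPS, so that its groups overlapped, and its log2 fold change was 0.33 ± 0.18, or 0.18 without CtrlVehLPS replicate 1. The elastic fibre gene Fbln5 had a log2 fold change of 0.72 ± 0.21, with 1 exposed library at 41.3 CPM and the other 3 between 21.9 and 25.6 CPM.

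Trpv4 had the second-smallest p. It encodes a calcium-permeable cation channel that responds to cell swelling and warmth and is found in astrocytes, endothelium and choroid plexus. Its level was 2.51, 3.77 and 3.74 CPM in CtrlVehLPS and 6.78, 7.75, 7.07 and 5.76 CPM in GWVehLPS, with no overlap. The log2 fold change of Trpv4 was 1.05 ± 0.20 (edgeR adjusted p = 0.0612), and 0.87 without CtrlVehLPS replicate 1. Without LPS, Trpv4 ranged from 3.13 to 5.24 CPM over both groups.

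Cadps2 and Adgrl4 came next among nuclear protein-coding genes with higher values. Cadps2 encodes a protein that primes dense-core vesicles for release and is abundant in cerebellum. It was at 84.4, 97.6 and 102 CPM in CtrlVehLPS and 117, 122, 114 and 119 CPM in GWVehLPS. Its lowest value was in CtrlVehLPS replicate 1, and its log2 fold change was 0.32 ± 0.07 with that library and 0.24 without it. Adgrl4 encodes an adhesion receptor of blood vessel endothelium. It was at 8.97, 9.27 and 7.83 CPM in CtrlVehLPS and 11, 15.7, 12.2 and 14.7 CPM in GWVehLPS, with a log2 fold change of 0.62 ± 0.13. For Adgrl4 the value without CtrlVehLPS replicate 1 was 0.64. Both genes had an edgeR adjusted p of 0.0737. H3f3b, which encodes the replacement histone H3.3, was at 150 to 152 CPM in CtrlVehLPS and 170 to 189 CPM in GWVehLPS, with a log2 fold change of 0.27 ± 0.06.

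Among genes with lower values in exposed brains, Ptpn14 had the smallest p. It encodes a tyrosine phosphatase that restrains the growth co-activator YAP. It was at 25.9, 25.3 and 22 CPM in CtrlVehLPS and 19.3, 13.9, 17.1 and 17.2 CPM in GWVehLPS, and the groups did not overlap. Its log2 fold change was -0.54 ± 0.11 (edgeR adjusted p = 0.0737). Cntnap3, a neuronal cell-adhesion protein, was at 17.8, 14.1 and 12.1 CPM in CtrlVehLPS and 9.22, 9.99, 9.19 and 7.73 CPM in GWVehLPS. The estimate for Cntnap3 was -0.70 ± 0.14 on the log2 scale, and -0.53 without CtrlVehLPS replicate 1.

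Several of the remaining genes on the lower side had their highest value in CtrlVehLPS replicate 1. Slco5a1, a transporter of the organic anion family, was at 11.7 CPM there and at 7.70 and 7.78 CPM in the other controls, against 3.95 to 5.78 CPM in GWVehLPS. Ptpro, a receptor tyrosine phosphatase, was at 68.3 CPM there and at 45.5 and 45.1 CPM in the others, against 29.3 to 41.1 CPM in GWVehLPS. Dlx6os1, a noncoding RNA of forebrain interneuron lineages that is antisense to its neighbour, was at 33.2, 19.8 and 14.8 CPM, against 9.65 to 13 CPM. The log2 fold changes of these genes were -0.92, -0.61 and -0.96 with that library, and -0.68, -0.37 and -0.56 without it. Myo16, an unconventional myosin of neurons, had a log2 fold change of -0.42 ± 0.09, and its groups did not overlap. Rad21l, a meiotic cohesin subunit, was scarce, at 0.731 to 1.75 CPM in CtrlVehLPS and 0.118 to 0.505 CPM in GWVehLPS. A predicted gene with no descriptive symbol, D030047H15Rik, also ranked among the lower genes.

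**Figure D2:**
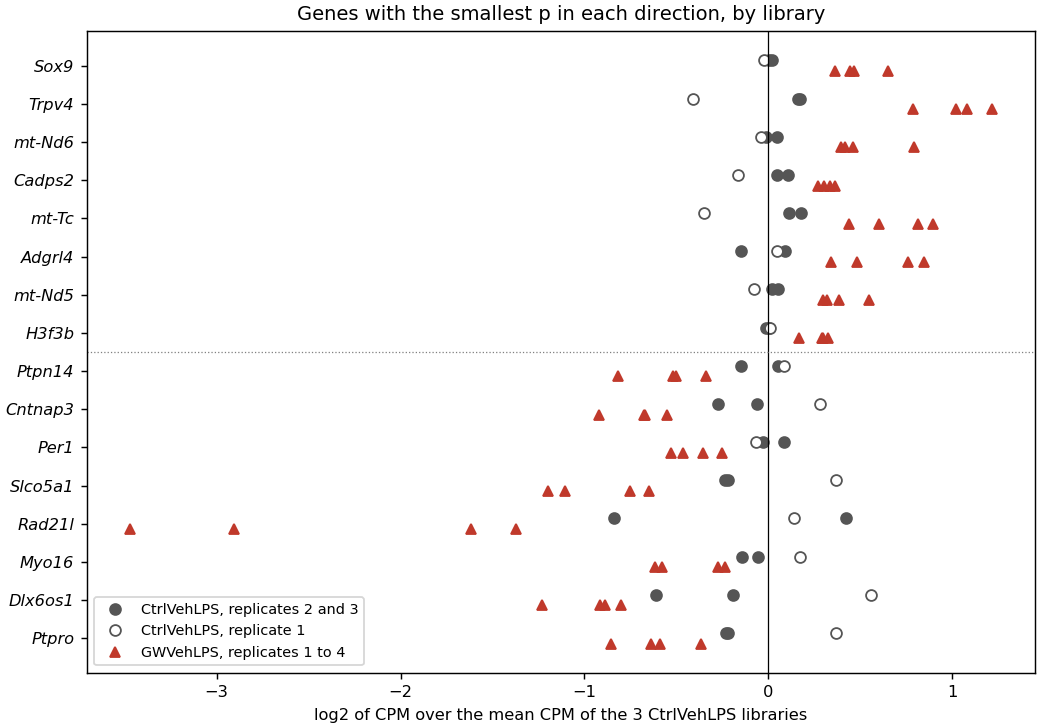
Each point is a library's log2 ratio of CPM to the mean of the 3 CtrlVehLPS libraries, for the named genes with the smallest p in each direction (higher above the dotted line, lower below). Open circles are CtrlVehLPS replicate 1, filled circles the other controls and triangles GWVehLPS. The triangles lie to 1 side of all circles for each of these genes, which were picked by p in these same libraries, so the separation is no separate support.

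Genes of activated microglia, the brain's resident macrophages, had a median log2 fold change of 0.27 over 27 tested members. Of them, 6 had an unadjusted p under 0.05, all with higher values in GWVehLPS, against 3.86% of all genes, and at 8 the groups did not overlap with GWVehLPS above, against 2.84%. The count was again 6, and the median 0.16, without CtrlVehLPS replicate 1. It was 0.10 without GWVehLPS replicate 2, which had the highest mean log2 CPM over these genes. Cd68, a lysosomal glycoprotein of phagocytes, was at 6.68, 6.58 and 6.90 CPM in CtrlVehLPS and 12.7, 10.1, 8.45 and 8.16 CPM in GWVehLPS. The controls lay within a narrow range, and the log2 fold change of Cd68 was 0.56 ± 0.17 with CtrlVehLPS replicate 1 and 0.56 without it (edgeR adjusted p = 0.41 with all libraries). Ctsz, a lysosomal cathepsin, had a log2 fold change of 0.23 ± 0.09 and did not overlap between groups.

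Homeostatic microglial genes, which mark resting microglia, had a median log2 fold change of 0.00 over 21 members. Sall1, the transcription factor that maintains microglial identity but is also expressed elsewhere in brain, had a log2 fold change of -0.31 ± 0.11 with its highest value, 43.3 CPM, in CtrlVehLPS replicate 1, and -0.19 without it. Sparc, a matrix-binding protein, had a log2 fold change of 0.29 ± 0.12 and Olfml3 one of 0.21 ± 0.12, or 0.12 without that library. All 10 tested markers of border-associated macrophages had positive log2 fold changes with a median of 0.36, but none had an unadjusted p under 0.05, and 7 were positive without CtrlVehLPS replicate 1. Leaving out 1 library gave medians for this list from 0.17 (without GWVehLPS replicate 1) to 0.57 (without CtrlVehLPS replicate 2). Among 10 tested blood leukocyte genes, 0 had higher and 1 had lower values at that threshold, but 8 had positive log2 fold changes. Their median was 0.45 at a median SE of 0.91, and 0.55 without CtrlVehLPS replicate 1. It ranged from 0.045 without GWVehLPS replicate 4 to 1.46 without CtrlVehLPS replicate 2. The median summed CPM of all listed leukocyte genes was 33.6 in CtrlVehLPS and 37.1 in GWVehLPS. The part of blood cells in the other results was not tested.

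Complement genes had a median log2 fold change of 0.29 over 19 members, and 4 had an unadjusted p under 0.05, all with higher values in GWVehLPS. Leaving out CtrlVehLPS replicate 1 gave 2 higher, 1 lower and a median of 0.20, and leaving out GWVehLPS replicate 1 gave a median of 0.16. C3ar1, the receptor for the anaphylatoxin C3a on microglia, was at 3.03, 2.42 and 2.10 CPM in CtrlVehLPS and 3.42, 3.97, 4.32 and 3.41 CPM in GWVehLPS. Its groups did not overlap, and its log2 fold change was 0.57 ± 0.23. The regulators showed the same sign, with 0.49 ± 0.16 for Serping1, the C1 inhibitor, which became 0.29 without CtrlVehLPS replicate 1, and 0.29 ± 0.11 for Cd59a, which blocks the membrane attack complex.

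Interferon-stimulated genes, which encode antiviral effectors and sensors, had a median log2 fold change of 0.37 over 39 tested members, of which 34 were positive. Of these genes, 8 had an unadjusted p under 0.05, all with higher values in GWVehLPS, against 3.86% of all genes, and at 11 the groups did not overlap with GWVehLPS above, against 2.84%. Leaving out CtrlVehLPS replicate 1 gave a count of 3 and a median of 0.22. Their mean log2 CPM was 1.58 in that library, 2.05 and 1.90 in the other controls and 2.06 to 2.28 in GWVehLPS, so the lowest exposed brain and the highest of the controls were close. Without LPS the median log2 fold change of the list was -0.05.

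Ifitm3, a membrane protein that blocks viral entry and is strong in endothelium and microglia, was at 9.71, 11 and 12.6 CPM in CtrlVehLPS and 19.0, 15.6, 14.2 and 19.9 CPM in GWVehLPS. Its groups did not overlap, and its log2 fold change was 0.64 ± 0.18, or 0.54 without CtrlVehLPS replicate 1. Gbp3, whose promoter is printed above, was at 2.88, 4.10 and 3.45 CPM in CtrlVehLPS and 5.73, 5.70, 5.79 and 4.37 CPM in GWVehLPS. The log2 fold change of Gbp3 was 0.65 ± 0.24. Oasl2, of the oligoadenylate synthetase family, was at 4.28 CPM in CtrlVehLPS replicate 1 and at 7.36 and 7.78 CPM in the other controls, against 7.94 to 10.9 CPM in GWVehLPS. For Oasl2 the log2 fold change was 0.55 ± 0.19 with that library and 0.30 without it.

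Antigen presentation genes had a median log2 fold change of 0.24 over 19 members, with 4 at an unadjusted p under 0.05, all higher, or 0.17 and 2 without CtrlVehLPS replicate 1. Without LPS the median of the list was 0.17. H2-D1, a classical class I heavy chain, was at 48.2, 73.2 and 71.4 CPM in CtrlVehLPS and 88.0, 90.4, 78.2 and 90.3 CPM in GWVehLPS. For H2-D1 the log2 fold change was 0.44 ± 0.12, and 0.26 without CtrlVehLPS replicate 1. Reads of class I genes can be shared among near-identical copies, so the value of H2-D1 is uncertain. B2m, the light chain of class I molecules, had a log2 fold change of 0.27 ± 0.08, and Psmb8, an immunoproteasome subunit, 0.55 ± 0.24.

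Of 25 listed cytokine, chemokine and NF-kB genes, 15 had enough counts to be tested. Their median log2 fold change was 0.08, with 2 members higher at an unadjusted p under 0.05 and 0 lower. It ranged from 0.026 without GWVehLPS replicate 4 to 0.17 without CtrlVehLPS replicate 2. Cxcl10, the interferon-induced chemokine, was at 0.406, 0.393 and 0.292 CPM in CtrlVehLPS and 0.803, 0.944, 1.88 and 1.12 CPM in GWVehLPS. The groups did not overlap, and the log2 fold change of Cxcl10 was 1.67 ± 0.46, or 1.76 without CtrlVehLPS replicate 1 (edgeR adjusted p = 0.333 with all libraries). Nfkb2, an NF-kB subunit, had a log2 fold change of 0.60 ± 0.23 with its lowest value, 2.11 CPM, in CtrlVehLPS replicate 1, and 0.30 without it. Nfkbia, the inhibitor that NF-kB induces to limit itself, had the opposite sign at -0.24 ± 0.13.

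Endothelial activation and acute-phase genes formed 1 mixed list, in which not every member is vascular. Of its 24 tested members, 6 had an unadjusted p under 0.05, all higher in GWVehLPS, and the median log2 fold change was 0.19. Without CtrlVehLPS replicate 1 the count was 4 and the median 0.11, and without GWVehLPS replicate 3 the median was 0.31. Icam1, the adhesion molecule that arrests leukocytes on endothelium, was at 2.62, 3.26 and 3.45 CPM in CtrlVehLPS and 4.58, 5.31, 5.51 and 4.21 CPM in GWVehLPS. Icam1 had a log2 fold change of 0.67 ± 0.22 (edgeR adjusted p = 0.461). Angptl4, a secreted inhibitor of lipoprotein lipase, was at 1.69 to 2.25 CPM in CtrlVehLPS and 2.71 to 4.85 CPM in GWVehLPS, with a log2 fold change of 0.81 ± 0.25. Saa3, an acute-phase protein gene, was scarce and scattered, at 0.259, 0.562 and 0.0585 CPM against 2.86, 0.590, 0.643 and 1.60 CPM.

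Endothelial identity and barrier genes had a smaller median of 0.13 over 21 members, with 6 higher at an unadjusted p under 0.05 and 0 lower, or 2 and 0 without CtrlVehLPS replicate 1. The median was 0.081 without that library and 0.27 without CtrlVehLPS replicate 2. Cldn5, the main claudin of blood-brain barrier tight junctions, was at 15.7, 13.5 and 18.1 CPM in CtrlVehLPS and 19.6, 25.3, 25.9 and 21 CPM in GWVehLPS. Its log2 fold change was 0.54 ± 0.13 under LPS (edgeR adjusted p = 0.168) and 0.51 ± 0.13 without LPS (edgeR adjusted p = 0.39), in separate mice. Pecam1, an endothelial junction protein, had a log2 fold change of 0.48 ± 0.15, and Ocln, a tight junction protein, 0.40 ± 0.17. Without CtrlVehLPS replicate 1 the values of Pecam1 and Ocln became 0.33 and 0.25. Both had their lowest value in CtrlVehLPS replicate 1. Pericyte genes had a median of 0.02, with 0 of 13 at an unadjusted p under 0.05.

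Collagen and fibroblast genes, expressed in the meninges and around large vessels, had a median log2 fold change of 0.14 over 22 members, with 7 higher at an unadjusted p under 0.05, or 2 without CtrlVehLPS replicate 1. The median was 0.082 without GWVehLPS replicate 2. Bgn, the matrix proteoglycan biglycan, was at 9.79, 9.22 and 10.1 CPM in CtrlVehLPS and 11.2, 14.9, 13 and 14.7 CPM in GWVehLPS. Bgn had a log2 fold change of 0.47 ± 0.13, and 0.48 without that library. Col1a1, a fibrillar collagen chain, had 0.59 ± 0.18 and Dcn, the proteoglycan decorin, 0.53 ± 0.18, and both were lowest in CtrlVehLPS replicate 1, without which Dcn had 0.33. Choroid plexus and ependymal genes had a median of 0.48, with 8 of 17 higher at an unadjusted p under 0.05, or 0.29 and 2 without that library. Folr1, the folate carrier of choroid plexus, was at 2.59 CPM in that library and at 4.38 and 6.55 CPM in the others, against 5.33 to 8.13 CPM in GWVehLPS, and its log2 fold change was 0.65 ± 0.27 with it and 0.34 without it. Kcnj13, an inward rectifier potassium channel of choroid plexus, and Prlr, the prolactin receptor, had log2 fold changes of 0.79 ± 0.28 and 0.48 ± 0.19.

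**Figure D3:**
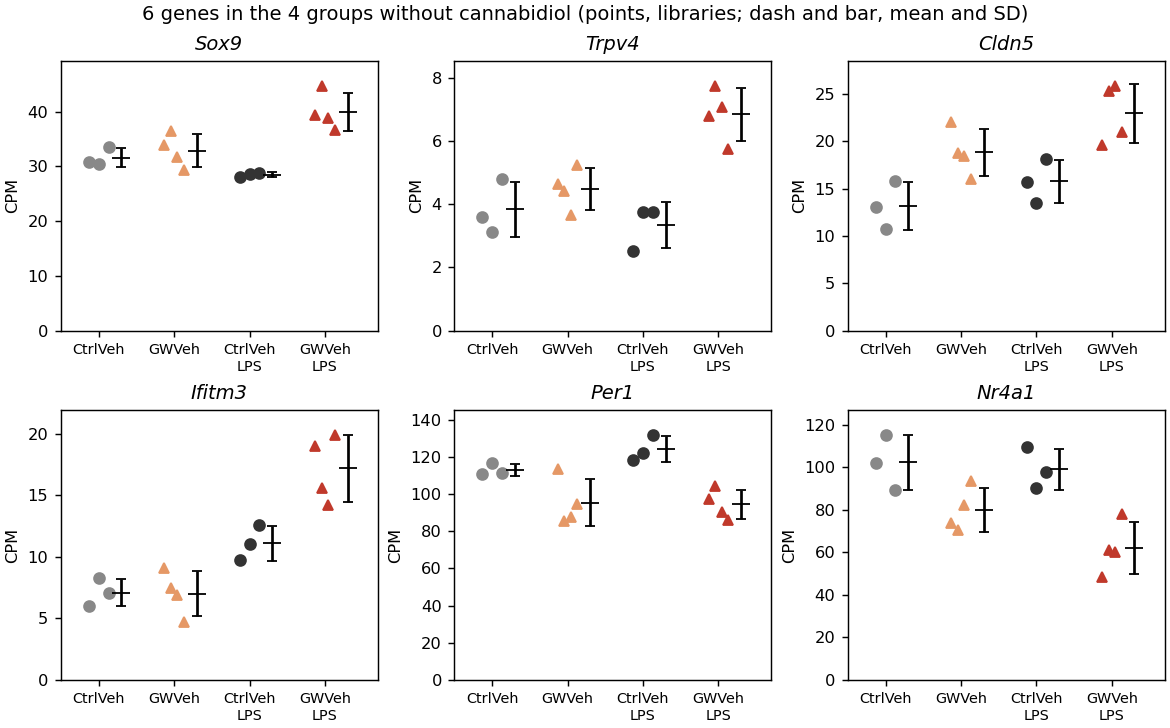
CPM of 6 genes in the 4 groups of vehicle-treated mice, with and without LPS. Points are libraries, dashes the group means and bars the SD. Sox9, Trpv4 and Ifitm3 separate the groups under LPS and overlap without it, whereas Cldn5 is separated in both settings.

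Immediate-early genes, which neurons transcribe within minutes of activity, lay mostly on the lower side. Their median log2 fold change was -0.20 over 20 tested members, of which 16 were negative. Of these genes, 6 had an unadjusted p under 0.05 with lower values and 1 with higher values, against 3.86% of all genes in each direction. The 1 with higher values was Npas4, named outside the rule and left out of the later checks of named genes. Its log2 fold change was 0.45 ± 0.21 with LPS and 0.55 without LPS. The list's median was also -0.20 without CtrlVehLPS replicate 1, with counts of 4 lower and 0 higher. Leaving out GWVehLPS replicate 1 gave a median of -0.13. It was -0.19 without LPS, where 5 members were lower and 1 higher at an unadjusted p under 0.05, against 3.98% and 4.82% of all genes. This list therefore had a like median in 2 sets of mice, one with LPS and one without, but in both the groups overlapped. With LPS the list's mean log2 CPM was 5.231, 5.118 and 5.138 in CtrlVehLPS and 4.747, 5.088, 4.792 and 5.138 in GWVehLPS. Without LPS it was 5.238, 5.418 and 5.085 in CtrlVeh and 4.885, 4.915, 5.128 and 5.288 in GWVeh.

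Nr4a1, whose promoter is printed above, was at 109, 90.2 and 97.6 CPM in CtrlVehLPS and 48.5, 61.2, 60.2 and 78.2 CPM in GWVehLPS. The groups did not overlap, and its log2 fold change was -0.68 ± 0.15 (edgeR adjusted p = 0.168). Without LPS, Nr4a1 had a log2 fold change of -0.35 ± 0.15. Its relative Nr4a3 was at 32.7, 31.8 and 36.9 CPM in CtrlVehLPS and 25.1, 30.1, 17.6 and 21 CPM in GWVehLPS, a log2 fold change of -0.52 ± 0.16, and had -0.71 ± 0.16 without LPS. Fosl2, a subunit of the AP-1 factor, was at 41.1, 39.3 and 37.3 CPM in CtrlVehLPS and 32.1, 31, 25.0 and 31.5 CPM in GWVehLPS. Its log2 fold change was -0.39 ± 0.11 with LPS and -0.53 ± 0.11 without, where it was among the genes with the smallest p.

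Genes induced by glucocorticoids had a median log2 fold change of -0.16 over 20 members, with 8 lower and 1 higher at an unadjusted p under 0.05, or 5 and 1 without CtrlVehLPS replicate 1. Their mean log2 CPM was 4.919, 4.943 and 4.984 in CtrlVehLPS and 4.977, 4.712, 4.679 and 4.951 in GWVehLPS. The groups thus overlapped, and GWVehLPS replicates 2 and 3 were the lowest. Per1, a clock gene that glucocorticoids and neuronal activity also induce, was at 119, 122 and 132 CPM in CtrlVehLPS and 97.2, 104, 90.2 and 86.3 CPM in GWVehLPS. Its groups did not overlap, and its log2 fold change was -0.39 ± 0.08 (edgeR adjusted p = 0.101), or -0.43 without CtrlVehLPS replicate 1. Without LPS the log2 fold change of Per1 was -0.24 ± 0.08, and the difference between both was -0.15 ± 0.12. Sgk1, a kinase induced by glucocorticoids, was at 145, 106 and 114 CPM in CtrlVehLPS and 84.3, 67.2, 70.6 and 93.0 CPM in GWVehLPS. The log2 fold change of Sgk1 was -0.63 ± 0.19, and -0.48 without that library. Ddit4, an inhibitor of mTORC1, had -0.35 ± 0.10.

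The circadian clock list as a whole was centred near 0, with a median of -0.05 over 18 members, 3 higher and 2 lower at an unadjusted p under 0.05, and -0.020 without GWVehLPS replicate 4. Rora, a nuclear receptor of the clock's second loop that is abundant in cerebellar Purkinje cells, had a log2 fold change of 0.31 ± 0.10. It was lowest in CtrlVehLPS replicate 1, at 93.4 CPM, and its value without that library was 0.17.

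The molecular targets of the exposure chemicals showed small differences. Ache, which encodes acetylcholinesterase and is named outside the rule, was at 94.3, 119 and 131 CPM in CtrlVehLPS and 114, 123, 118 and 115 CPM in GWVehLPS. Its groups overlapped, and its log2 fold change was 0.04 ± 0.12, with a 95% confidence interval from -0.21 to 0.28, and -0.09 without CtrlVehLPS replicate 1. Of 19 tested cholinergic genes, 2 were lower and 0 higher at an unadjusted p under 0.05, and the median log2 fold change was -0.06, from -0.15 without GWVehLPS replicate 3 to -0.0072 without GWVehLPS replicate 2. These were the muscarinic receptors Chrm1 and Chrm4, at -0.18 ± 0.08 and -0.28 ± 0.13, followed by the receptor Chrm2 at -0.19 ± 0.09. Without CtrlVehLPS replicate 1 the values were -0.07, -0.14 and -0.11.

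Of 11 tested sodium channel genes, 3 were lower and 0 higher at an unadjusted p under 0.05, or 2 and 0 without CtrlVehLPS replicate 1. The median was -0.033, and -0.13 without that library. Scn3a, a pore-forming subunit most abundant in immature neurons, was at 65.2, 51.8 and 48.5 CPM in CtrlVehLPS and 44.9, 42.5, 45.1 and 36.7 CPM in GWVehLPS. Its log2 fold change was -0.39 ± 0.10 (edgeR adjusted p = 0.295), and -0.24 without CtrlVehLPS replicate 1. Scn3b, an auxiliary subunit, was at 147, 120 and 126 CPM in CtrlVehLPS and 107 to 113 CPM in GWVehLPS, with a log2 fold change of -0.26 ± 0.07, or -0.16 without that library. The main subunits of adult brain were added outside the rule. Scn1a, Scn2a and Scn8a had log2 fold changes of 0.05 ± 0.07, -0.03 ± 0.07 and -0.03 ± 0.07, and the widest of their 95% confidence intervals, that of Scn2a, ran from -0.18 to 0.11. The values were 0.00, 0.01 and -0.09 without CtrlVehLPS replicate 1.

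Transcripts of the mitochondrial genome had a median log2 fold change of 0.38 over 13 tested members, with 12 positive. Of these, 6 had an unadjusted p under 0.05, all higher, and at the same number the groups did not overlap. Without CtrlVehLPS replicate 1 the count was 4 and the median 0.35, and without GWVehLPS replicate 2 the median was 0.21. Their summed CPM was 33565 to 35806 in CtrlVehLPS and 37891 to 46451 in GWVehLPS, against 33494 to 43497 in the other 15 libraries. The nuclear genes of oxidative phosphorylation had a median of -0.03 over 84 members, with 2 lower and 0 higher at an unadjusted p under 0.05. That median was 0.03 without CtrlVehLPS replicate 1, with 54 positive members.

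Both mt-Nd6 and mt-Nd5 encode subunits of respiratory complex I, on opposite strands of the mitochondrial genome. mt-Nd6 was at 726, 771 and 740 CPM in CtrlVehLPS and 996, 1293, 980 and 1029 CPM in GWVehLPS, with a log2 fold change of 0.53 ± 0.10 (edgeR adjusted p = 0.0737). mt-Nd5 was at 2670, 2922 and 2852 CPM in CtrlVehLPS and 3675, 4115, 3465 and 3519 CPM in GWVehLPS, with 0.39 ± 0.08 (edgeR adjusted p = 0.0789). The groups did not overlap for either gene. The annotated genes overlap by 14 bases, and whether counting used the strand is not given in the sources used here, so their split is uncertain. mt-Nd1, another complex I subunit, had 0.23 ± 0.08. mt-Tc, the mitochondrial cysteine tRNA, had 0.71 ± 0.15, but poly(A)-selected libraries capture tRNAs poorly.

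**Figure D4:**
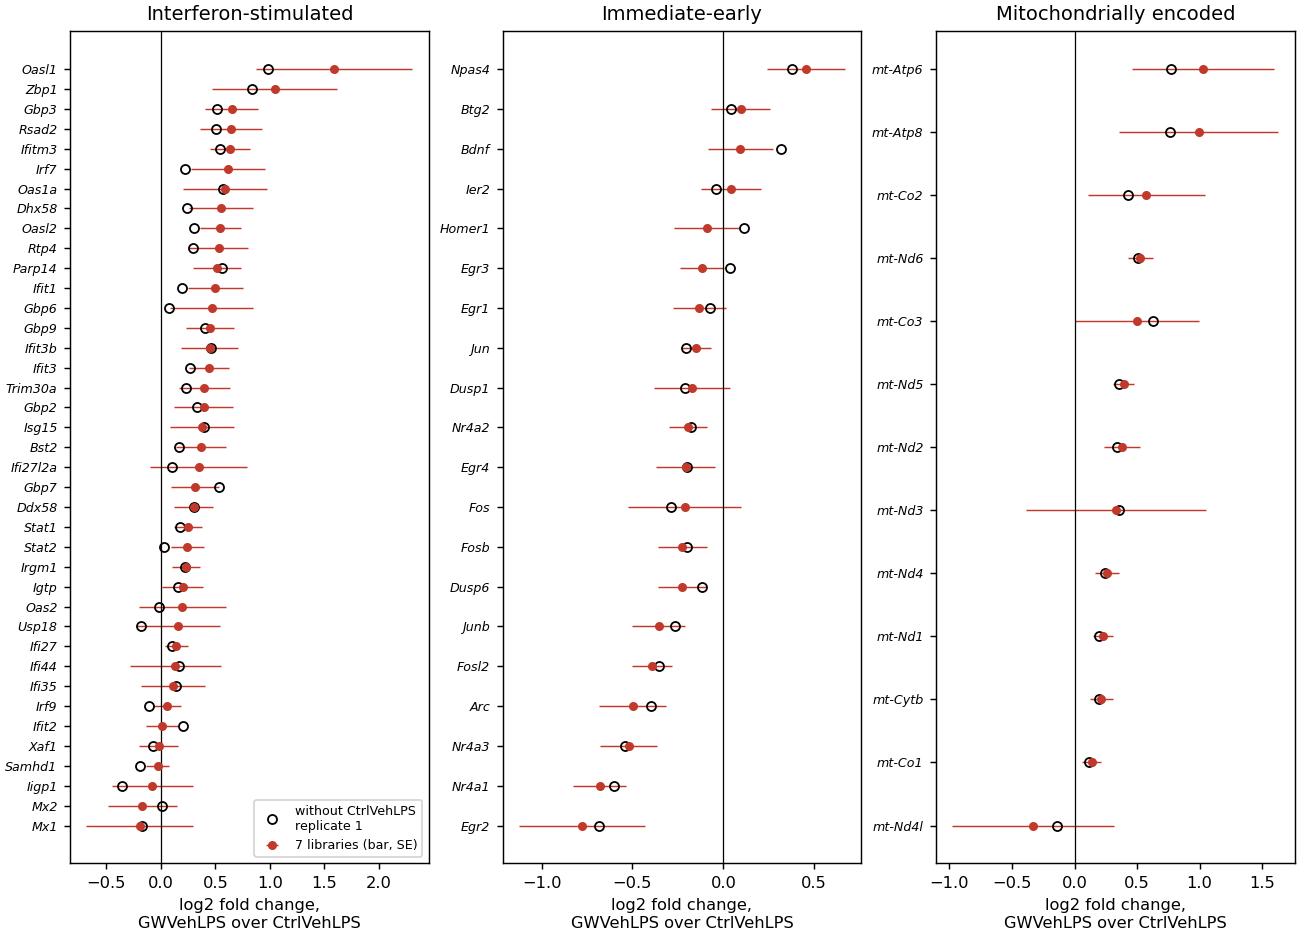
Log2 fold change of each tested member of 3 gene lists, GWVehLPS over CtrlVehLPS, with its SE (filled points and bars), and the value without CtrlVehLPS replicate 1 (open circles). Interferon-stimulated and mitochondrially encoded genes lie mostly above 0 and immediate-early genes mostly below 0.

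Genes that mark brain regions differed between libraries, most of all in CtrlVehLPS replicate 1. All 16 cerebellar genes had positive log2 fold changes with a median of 0.66, and 0.18 without this library. The median was 1.04 without CtrlVehLPS replicate 3. The 3 with the smallest p were Calb1, a calcium buffer of Purkinje cells, Pax6, a transcription factor of granule cells, and Itpr1, the calcium-release channel of Purkinje cells. Calb1 was at 118 CPM in this library and at 228 and 208 CPM in the other controls, against 224 to 286 CPM in GWVehLPS. Without this library the log2 fold changes of Calb1, Pax6 and Itpr1 were 0.27, 0.12 and 0.10, against 0.51, 0.37 and 0.32 with it. All 14 olfactory bulb genes had negative values with a median of -1.02, and -0.52 without the library, with 9 lower and 0 higher at an unadjusted p under 0.05, or 3 and 0 without it. Their leading members were Shisa3, Dlx5 and Meis2, and Shisa3 was at 10.5, 3.88 and 4.74 CPM in CtrlVehLPS and 0.960 to 3.31 CPM in GWVehLPS. The log2 fold changes of Shisa3, Dlx5 and Meis2 were -1.61, -0.72 and -0.41 with this library and -1.02, -0.46 and -0.18 without it. Bulb genes also differed among the other libraries. Omp, a protein of olfactory sensory neurons, was at 6.65, 6.35 and 5.73 CPM in CtrlVehLPS and 0.454, 3.11, 5.01 and 0.426 CPM in GWVehLPS. Scores for both regions, each the mean log2 CPM of the same bulb or cerebellar list, were also added to the model. The bulb and cerebellar medians were then each 0.03, which is no separate result, since such scores bring their own lists near 0 by construction.

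Of the neurogenesis genes, Dcx, a microtubule protein of migrating neuroblasts, was at 66.9 CPM in CtrlVehLPS replicate 1 and at 44.1 and 36.5 CPM in the other controls, against 30.9 to 37.7 CPM in GWVehLPS. Its log2 fold change was -0.55 ± 0.15 with that library and -0.25 without it. The transcription factors Dlx2 and Sox11 had -0.73 ± 0.22 and -0.36 ± 0.13, and -0.39 and -0.23 without that library. The striatal genes Tac1, Adora2a and Gpr6, which encode a neuropeptide precursor and receptors, had -0.43 ± 0.14, -0.31 ± 0.10 and -0.47 ± 0.17, and -0.22, -0.15 and -0.20 without that library. The pancreatic enzyme genes Pnlip and Cela1 had log2 fold changes of -4.65 ± 1.04 and -3.13 ± 0.77, which became -0.12 and 0.06. The chymotrypsin-like protease gene Ctrl had -3.16 ± 0.67, which became -0.79. Adding the bulb and cerebellar scores to the model also moved the medians of other lists. In that model the median was 0.15 for interferon-stimulated genes, 0.13 for reactive astrocyte genes, 0.14 for activated microglia and 0.15 for complement. It was 0.011 for the mixed endothelial activation and acute-phase list, 0.058 for endothelial identity and -0.0030 for cytokines. Mitochondrially encoded genes were at 0.21, immediate-early genes at -0.14 and glucocorticoid-responsive genes at -0.13.

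**Figure D5:**
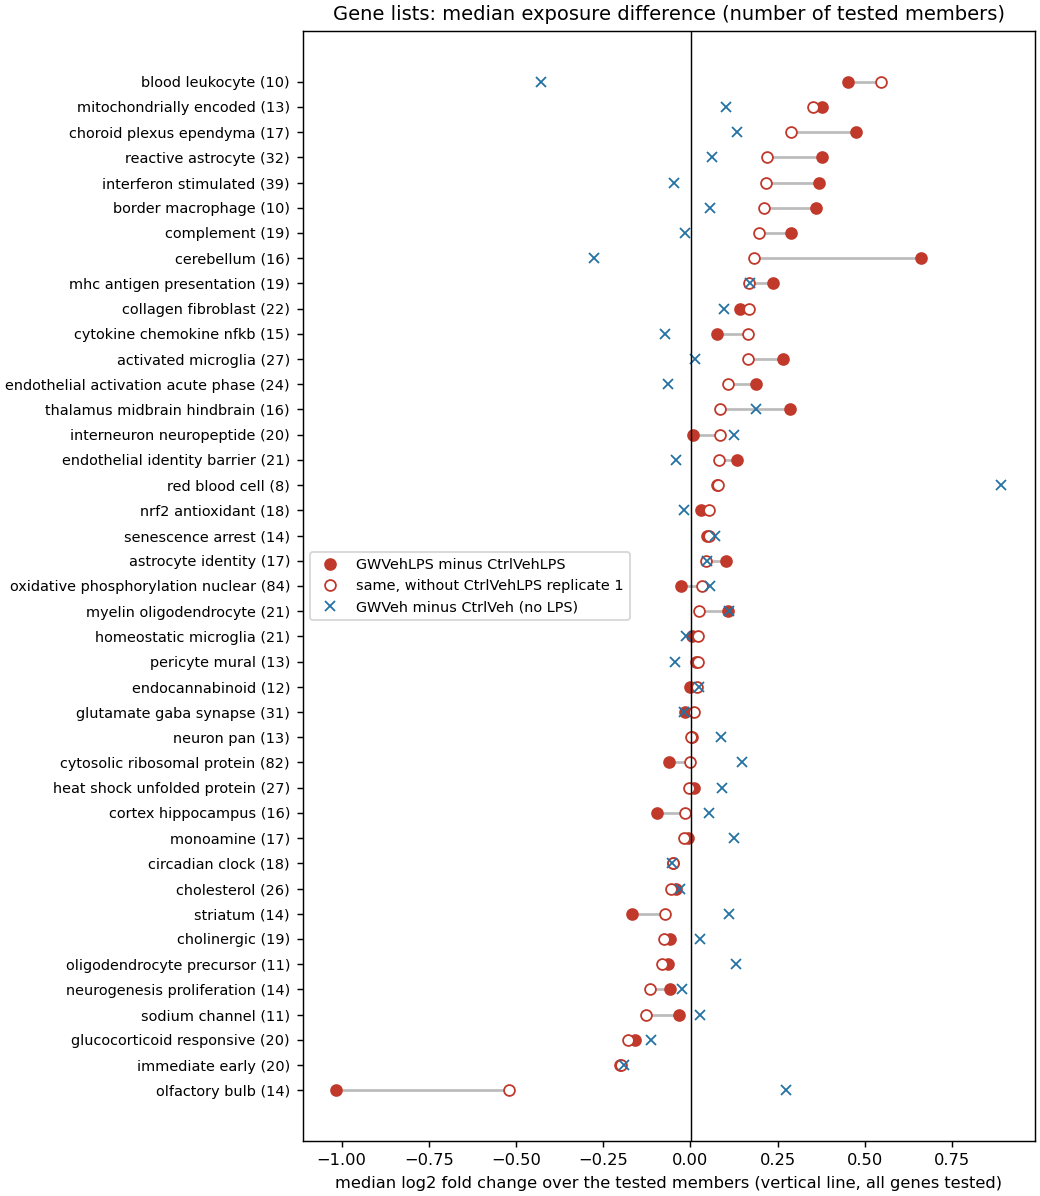
Median log2 fold change of each gene list with all 7 libraries (filled circles), without CtrlVehLPS replicate 1 (open circles) and in the comparison without LPS (crosses); lists under 8 members and skeletal muscle are not drawn. Of the lists shown, the cerebellar and olfactory bulb lists move most when that library is left out, and the immediate-early and glucocorticoid lists move little.

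The exposure difference without LPS, measured in 7 other mice, gave the nearest comparison. There edgeR called 0 of 20026 genes at an adjusted p of 0.05, while DESeq2 called 9 and voom 84. At an unadjusted p under 0.05, 1763 genes (8.8%) were counted. Across 16161 genes with a mean log2 CPM of at least 0, the log2 fold changes of both comparisons had a Pearson correlation of -0.03, given as a description since genes are not independent. Of the 1548 genes with an unadjusted p under 0.05 under LPS, 731 (47.2%) had the same sign without LPS. Of these 1548, 135 also had an unadjusted p under 0.05 without LPS, and 58 of the 135 had the same sign.

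The test of the difference between both comparisons called 0 of 20026 genes in edgeR, with 1688 (8.43%) at an unadjusted p under 0.05, of which 823 (4.11%) were positive and 865 (4.32%) negative, while DESeq2 called 10 and voom 0. The genes with the smallest p in this test all had an adjusted p of 0.247. Adgrl4 differed by 0.92 ± 0.18 on the log2 scale, with 7.88 to 9.58 CPM in CtrlVeh and 6.86 to 7.53 CPM in GWVeh, so that its exposure difference had opposite signs with and without LPS. Cadps2 differed by 0.42 ± 0.09, and Icosl, a costimulatory ligand for T cells, by 0.86 ± 0.20. On the lower side were Cntnap3 at -1.0 ± 0.21, Ptpn14 at -0.72 ± 0.16 and Cpne6, a calcium-dependent phospholipid-binding protein of neurons, at -0.44 ± 0.10. The interferon-stimulated list had a median difference of 0.38 and the immediate-early list one of -0.05.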

How the data were processed

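Poly(A)-selected RNA of whole mouse brain was sequenced from 22 mice in 6 groups. The authors deposited 1 table of raw read counts per gene; reads were aligned to GRCm38 (mm10), per the series' design text, and no source used here gives the aligner, the counter or its strand setting. Whole-number counts were analysed as deposited, and 52125 of 56748 gene identifiers matched GENCODE M21, which gave coordinates. All 22 libraries (17152595 to 31150515 counts) were fitted as 6 group means with edgeR 4.0.16 in R 4.3.3, using TMM scaling, filterByExpr, robust quasi-likelihood tests and Benjamini-Hochberg adjustment over 20026 genes; this leaves 16 residual degrees of freedom. CPM values use TMM-scaled library sizes. DESeq2 1.42.0, limma 3.58.1 voom, other scalings and filters, a replicate block, region covariates and leaving out each library were the alternatives. Columns were matched to mice by library name, and no 2 libraries within CtrlVehLPS or within GWVehLPS agreed within sampling noise. Members and gene lists were chosen with earlier results of these data known. Named genes were those past the threshold, up to 8 in each direction by p, the 3 with the smallest p in each list described, and the 3 in each direction for the other 2 tests; exceptions are marked, and some genes that the rule names are not reported here. Scripts were tested on simulated data.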

Additional observations from a re-analysis of the deposited data

Results flagged for a closer look

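Among 86 named genes, 4 had a GWVehLPS library whose gap to the nearest of the other 3 took up more of the group's range than Dixon's 95% critical value. Chance gives about 1 such group in 20. mt-Nd6 was highest in GWVehLPS replicate 2 at 1293 CPM, against 979.8 to 1029 CPM in the others, and the mitochondrial list as a whole was highest in the same library. Gbp3 was lowest in GWVehLPS replicate 4 at 4.371 CPM, against 5.704 to 5.787 CPM. Fosl2 was lowest in GWVehLPS replicate 3 at 25.03 CPM, against 31.04 to 32.07 CPM. The pancreatic enzyme gene Cela1 was lowest in GWVehLPS replicate 3 at 1.975 CPM, against 2.825 to 2.934 CPM. No named gene passed the adjusted threshold in the test of the difference between the exposure effects with and without LPS.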

How the results depend on the processing

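The count of genes past the threshold under LPS stayed at 1 with RLE or upper-quartile scaling and with a filter of at least 1 CPM in 3 libraries. Without any filter on low counts it was 118 of 38807 genes (57 higher, 61 lower), with 36 in the comparison without LPS and 82 in the interaction. DESeq2 gave 25 (12 higher, 13 lower), 9 and 10 in these comparisons, and voom gave 6 (4 higher, 2 lower), 84 and 0. The groups of the contrast alone gave 2 higher and 0 lower, bulb and cerebellar covariates 0, and an adjusted p of 0.1 gave 9 (7 higher, 2 lower).

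Leaving out 1 library gave 0 to 24 genes under LPS (0 to 8 higher, 0 to 16 lower), 0 to 12 without LPS and 0 to 3 in the interaction. The 24 came without CtrlVehLPS replicate 3, 6 without GWVehLPS replicate 1 and 3 without GWVehLPS replicate 4, and the count was 0 when any one of the other 4 was left out. The 12 came without GWVeh replicate 4. The cause of these shifts was not tested.

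With the replicate number as a block, the count was 9 (6 higher, 3 lower) under LPS, 9 without LPS and 0 in the interaction, and Sox9 had an adjusted p of 0.00873. Same-numbered libraries correlated at 0.158, -0.107 and 0.0768 in their deviations, and only CtrlVehLPS replicate 1 correlated best with its own number. With 3 and 4 libraries per group, such weak correlations cannot decide whether the numbers stand for a pairing.

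Over 86 named genes and 1373 alternative values, 1275 kept direction and side of the threshold, 82 newly passed, 6 no longer passed (all Sox9) and 10 changed sign. With bulb and cerebellar covariates the log2 fold change was -0.11 for Ache, 0.083 for Cela1, 0.46 for Pnlip, 0.011 for Sall1 and 0.051 for Scn2a, and with voom it was -0.027 for Ache. Leaving out 1 library gave log2 fold changes from -0.089 to 0.15 for Ache, -3.66 to 0.059 for Cela1, -0.091 to 0.0076 for Scn2a and -0.093 to 0.022 for Scn8a. At this depth 3 counts correspond to 0.105 to 0.175 CPM, which limits the scarce chemokine and acute-phase genes.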
